A study of Homo sapiens with 6 samples.

Results

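The miR-21 hairpin yields a pair of mature strands, hsa-miR-21-5p (the guide strand) and hsa-miR-21-3p (the passenger strand), called miR-21-5p and miR-21-3p here, and both were taken by name from the deposited table, as 2 of its 413 mature miRNAs. Small RNA had been sequenced from MDA-MB-231 cells, a widely used line of human triple-negative breast cancer, with 3 libraries of vehicle-treated cultures and 3 of cultures exposed to 2 µM Withaferin A (WA) for 24 h. WA is a steroidal lactone of the plant Withania somnifera. The study's methods name DMSO as the vehicle, while the sample labels call the same cells untreated. The study describes the libraries of each group as independent replicates, all from this single line.

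miR-21 is among the best known oncogenic miRNAs, and it is abundant in many tumour cell lines, breast cancer lines included. Its primary transcript arises at the VMP1 locus, where STAT3 and AP-1 act on the promoter, and is cut by Drosha and then by Dicer into a short duplex. The strand kept by Argonaute becomes the guide and represses mRNAs such as those of PDCD4, TPM1 and RECK, and the other strand is mostly degraded. The ratio of the strands in a library is therefore the usual measure of arm use, and it compares rows of the same library, so it does not depend on how libraries were scaled to each other.

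In GRCh38 with GENCODE release 44, the MIR21 hairpin takes 72 bases of the plus strand of chromosome 17, from 59841266 to 59841337. It lies in an exon of 10 of the 20 annotated VMP1 transcripts, and in the 3′ UTR of the 6 protein-coding ones that span it. The guide strand spans hairpin bases 8 to 29 (59841273 to 59841294). The mature sequences below, from RefSeq on GRCh38.p14, are shown because the capitals, bases 2 to 8, are the seed by which a miRNA pairs with its targets, and they are the only mature sequences in the RefSeq table with this seed.
miR-21-5p: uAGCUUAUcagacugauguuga
miR-590-5p: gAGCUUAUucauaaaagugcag
miR-590-5p is not among the 413 miRNAs of the table, and of the 368 that could be matched to a RefSeq sequence, 0 besides miR-21-5p carried this seed.

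The deposited value of a miRNA is its read count scaled by the library's size factor, called the normalized value here. Every value of a library was a whole multiple of a single step, and a step is taken as 1 read. Summed over the listed miRNAs, vehicle libraries held 710878 to 4778066 reads each, and WA libraries 156442 to 2232934. The study describes the listed miRNAs as those expressed in both groups, so these totals, and every share below, cover the listed miRNAs and not all reads of a library. WA replicate 3 stood apart from the other WA libraries. Across the 413 miRNAs its Pearson correlation of log2(normalized value + 1) was 0.630 with WA replicate 1 and 0.641 with WA replicate 2, while these correlated with each other at 0.964. Its correlations with the vehicle libraries were between 0.772 and 0.797. Vehicle replicate 1 also stood apart from its group. It correlated at 0.785 and 0.792 with vehicle replicates 2 and 3, which correlated with each other at 0.987. The comparisons below are given with and without WA replicate 3, the library with the lowest correlations within its group. Ranges with each library left out in turn, vehicle replicate 1 included, are given at the end. In libraries from whole cultures, fewer cells and less RNA per cell cannot be told apart.

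miR-21-5p was the most abundant miRNA in 5 of the 6 libraries. Vehicle replicates 1 to 3 had 14.0%, 29.5% and 27.1% of their reads in this strand. For WA replicates 1 and 2 the shares were 30.5% and 28.8%, the former the highest share of the 6 libraries. In WA replicate 3 it held 1.61% (95% exact binomial interval 1.59 to 1.63) and ranked 16 in the library. The groups therefore overlapped, and the lowest value of each group came from 1 library that differed from the other members of its own group, vehicle replicate 1 and WA replicate 3. The binomial intervals of the 6 shares did not overlap each other, but they cover counting error only.

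The normalized values of miR-21-5p were 134806, 403216 and 347168 with vehicle, against 277045, 290979 and 27029 with WA. The group means were 295063 ± 141588 (SD, n = 3) and 198351 ± 148532 (SD, n = 3), so the difference between them was smaller than the spread within either group. On log2(normalized value + 1), limma gave a difference of -1.04 between WA and vehicle (standard error 1.23, 95% interval -3.90 to 1.82, adjusted p = 0.602). Without WA replicate 3 the difference was 0.09 (standard error 0.834, 95% interval -1.99 to 2.17, adjusted p = 0.933). Both intervals span 0 and reach well to either side of it, so neither a fall nor a rise of miR-21-5p was detectable with these libraries. The shares gave the same picture, with means of 23.5% ± 8.35 (SD, n = 3) and 20.3% ± 16.2 (SD, n = 3) and a two-sided exact permutation p of 0.9, where 0.1 is the smallest p that 3 libraries against 3 allow. The share without WA replicate 3 was 29.7% ± 1.21 (SD, n = 2) with WA, a difference of 6.15 percentage points in the other direction (two-sided exact permutation p = 0.6).

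miR-21-3p was present in every library at a much lower level. Its normalized values with vehicle were 226, 1622 and 1259.9. WA replicates 1 and 2 gave 34.8 and 104, under the lowest vehicle value. WA replicate 3 gave 1339.6, between vehicle replicates 3 and 2. As shares of reads these were 0.0235%, 0.119% and 0.0982% with vehicle, against 0.00384%, 0.0103% and 0.0799% with WA. The binomial intervals of WA replicates 1 (0.00141 to 0.00835) and 2 (0.00780 to 0.0133) overlapped, and the other shares lay apart by more than counting error. The strand rested on 6 reads in WA replicate 1 and 58 in WA replicate 2, against 167, 5678 and 4122 in the vehicle libraries and 1783 in WA replicate 3.

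**Figure D1:**
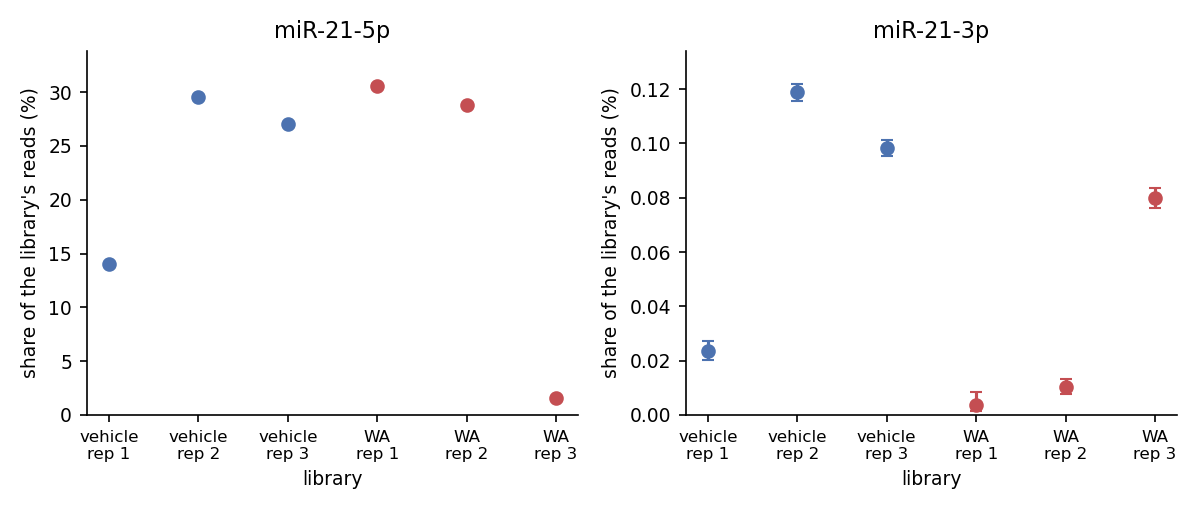
Share of each library's reads, in percent, held by miR-21-5p (left) and miR-21-3p (right) in the 3 vehicle (blue) and 3 WA (red) libraries, with 95% exact binomial intervals as bars where they are wider than the points. miR-21-5p was at 1.61% in WA replicate 3, where miR-21-3p, at 0.0799%, was far above its 0.00384% and 0.0103% in WA replicates 1 and 2.

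The vehicle mean of miR-21-3p was 1036 ± 724 (SD, n = 3) in normalized values and the WA mean 493 ± 734 (SD, n = 3). The log2 difference was -2.18 (standard error 1.47, 95% interval -5.60 to 1.25) with a limma adjusted p of 0.378. The groups overlapped through WA replicate 3. Without it the difference was -3.66 (standard error 1.05, 95% interval -6.27 to -1.05), 12.7-fold lower on the log2(normalized value + 1) scale, and the limma adjusted p was 0.0344. This comparison sets 2 libraries against 3. The library left out was picked because it disagreed with its group in these same data. The p-values and intervals without it, here and for the arm ratio, hold only given that choice. In it 45% of the 327 tested miRNAs passed, 35.2% as lower and 9.79% as higher, and the groups of 69.1% did not overlap, as was the case for miR-21-3p, so its fall was shared by many miRNAs. With all 6 libraries limma called 0 of the 2 strands, and 0 of them reached an unadjusted p of 0.05 either. The background was 5.5% of the 327 tested miRNAs (5.2% lower and 0.306% higher), with 26.3% under an unadjusted p of 0.05. The shares of miR-21-3p differed by -0.0489 percentage points (two-sided exact permutation p = 0.2), and by -0.0731 without WA replicate 3 (two-sided exact permutation p = 0.2).

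The strands did not follow each other across the libraries. With vehicle, the number of miR-21-5p reads per miR-21-3p read was 596, 249 and 276. It was 7965 in WA replicate 1 and 2808 in WA replicate 2, above each vehicle library, and 20.2 in WA replicate 3, below each of them. The 95% exact binomial intervals were 3659 to 21705, 2172 to 3698 and 19.2 to 21.2 in WA replicates 1 to 3, and the widest in the vehicle group ran from 512 to 698. The WA libraries thus lay on both sides of the vehicle range, outside it in 3 of 3 cases by more than counting error. Seen as a share of the reads of both strands, the passenger strand made up 0.168%, 0.401% and 0.362% with vehicle, against 0.0126%, 0.0356% and 4.72% with WA.

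On the log2 scale, with 1 added to each normalized value, the ratio of miR-21-5p to miR-21-3p averaged 8.42 ± 0.69 (SD, n = 3) with vehicle, against 9.56 ± 4.59 (SD, n = 3) with WA. The arm ratios of the 96 hairpins with both arms listed and measured were fitted together by limma. For miR-21 the difference was 1.14 (standard error 2.02, 95% interval -3.47 to 5.75, adjusted p = 0.867), and the two-sided exact permutation p was 0.8. In this fit limma called 0% of the 96 hairpins, while 21.9% reached an unadjusted p of 0.05, and the groups of 28.1% did not overlap. Without WA replicate 3 the difference was 3.76 (standard error 0.730, 95% interval 2.01 to 5.50), or 13.5-fold, with a limma adjusted p of 0.0153. In that comparison 16.7% of the hairpins passed, 8.33% with a higher and 8.33% with a lower ratio of 5p to 3p under WA, and the groups of 47.9% did not overlap, miR-21 among them. Of the 16 hairpins that passed, 7 had both arms at 0 in WA replicate 1 or 2, where the ratio is 0 by the added 1 and not a measurement. Among the 79 hairpins with an arm above 0 in each of the 5 libraries, 9 passed (11.4%), 7 with a higher ratio of 5p to 3p and 2 with a lower one. Of these 7, miR-21, miR-339 and miR-374a had more of the 5p arm with vehicle. In miR-331, miR-671, miR-181c and miR-664a the 3p arm was the major one, so their ratio of major to minor arm fell. It also fell in the 2 lower ones, miR-345 and miR-100. The exact permutation p for miR-21 was then 0.1, the smallest that 2 libraries against 3 allow. The direction of this difference hung on the WA libraries kept, since without WA replicate 1 it was -0.54 and without WA replicate 2 it was 0.20.

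**Figure D2:**
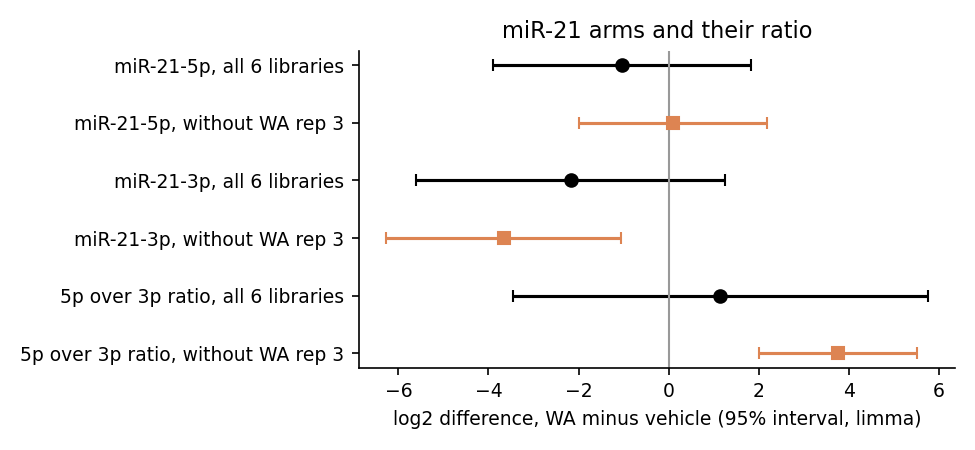
Log2 differences between WA and vehicle for miR-21-5p, miR-21-3p and their ratio (x axis, with 95% limma intervals as bars), with all 6 libraries (black circles) and without WA replicate 3 (orange squares). The intervals with all 6 libraries span 0, and without WA replicate 3 those of miR-21-3p (-3.66) and of the ratio (3.76) do not.

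The miR-21 ratio was next set beside the other hairpins, each as the arm with the higher vehicle level over the other arm. In the vehicle libraries miR-21 ranked 7, 11 and 7 among the 96 hairpins for this ratio, at log2 ratios of 9.21, 7.96 and 8.11 against medians of 4.04, 3.95 and 3.68. In WA replicates 1 and 2 it ranked 1, at 12.92 and 11.44 against medians of 3.37 and 3.48. In WA replicate 3 it ranked 47, at 4.33 against a median of 4.13. The median over the hairpins thus stayed between 3.37 and 4.13 in the 6 libraries, while miR-21 went from the top of the order to its middle. Single hairpins moved too. The lower quartile was 2.42 to 2.59 in the vehicle libraries, 0 in WA replicates 1 and 2 and 2.08 in WA replicate 3. Between WA replicates 1 and 2 and the vehicle group, changes of single hairpins ran from -10.93 to 8.81. Minor arms were often missing in WA replicates 1 and 2, with 32 of the 96 listed at 0 in WA replicate 1 and 22 in WA replicate 2. In 17 and 16 of these hairpins the major arm was at 0 too. The vehicle libraries had 0 to 9 minor arms at 0, and WA replicate 3 had 6. Vehicle replicate 1, with 9, held 710878 reads, and WA replicate 2 held 564882. After 156442 reads had been drawn at random from each of the 6 libraries, the miR-21 difference over all 6 was 1.39, against 1.14 before. The comparison without WA replicate 3 was not repeated on these draws, so the part of depth in it was not tested.

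**Figure D3:**
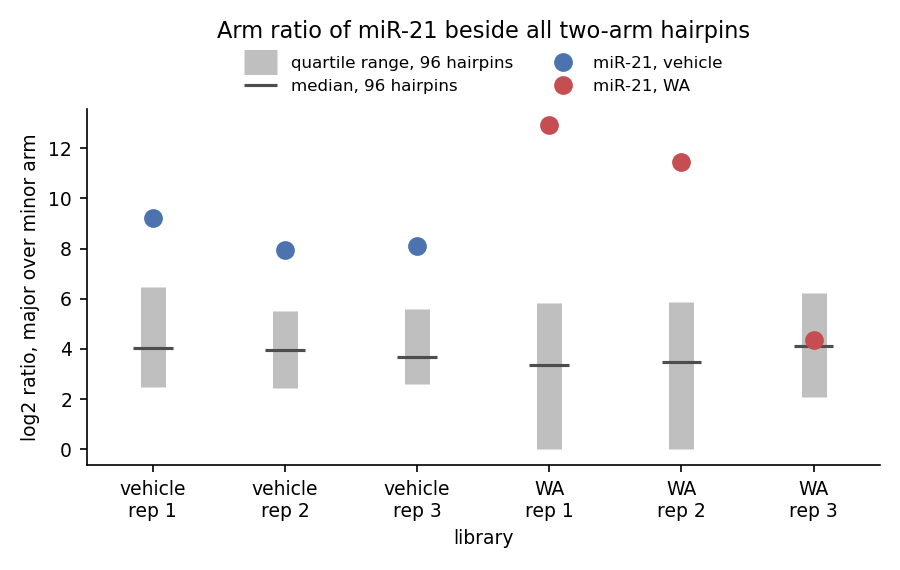
Log2 ratio of the major to the minor arm in each library, for miR-21 (points, vehicle blue and WA red) and for all 96 hairpins with both arms measured (grey bar from lower to upper quartile, dark line at the median). miR-21 lies above the quartile range in 5 libraries and at 4.33, close to the median of 4.13, in WA replicate 3.

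Between WA replicates 1 and 2 and the vehicle group, the ratio of major to minor arm changed by a median of -0.62 over the 96 hairpins (quartiles -2.56 and 1.04), and was higher in 35 and lower in 61. Both arms were at 0 in 17 hairpins in WA replicate 1 and in 16 in WA replicate 2, which sets their ratio to 0 by the added 1. Over the 79 hairpins with an arm above 0 in each of these 5 libraries the median was -0.24 (quartiles -1.64 and 1.23), with 35 higher and 44 lower. The change of 3.76 for miR-21 ranked 4 from the top in both sets. Between WA replicate 3 alone and the vehicle group the median was 0.08 and the change of miR-21 was -4.09, which ranked 7 from the bottom. The major arm was set by the vehicle libraries that also serve as the baseline, so part of the excess of lower ratios can come from this choice. These ranks are descriptions of these libraries. Taken by strand without WA replicate 3, the minor arms had a median log2 difference of -0.16 over the 80 that could be tested, and 20 of these passed as lower and 11 as higher. The major arms had a median of -0.93 over 96, with 35 lower and 4 higher. They too were set by the vehicle levels. Among them are 17 from hairpins with both arms at 0 in WA replicate 1 or 2, which can lower this median. miR-21-5p, at 0.09, lay between the median and the upper quartile (0.55) of the major arms, and miR-21-3p, at -3.66, lay below the lower quartile of the minor arms, -3.23.

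**Figure D4:**
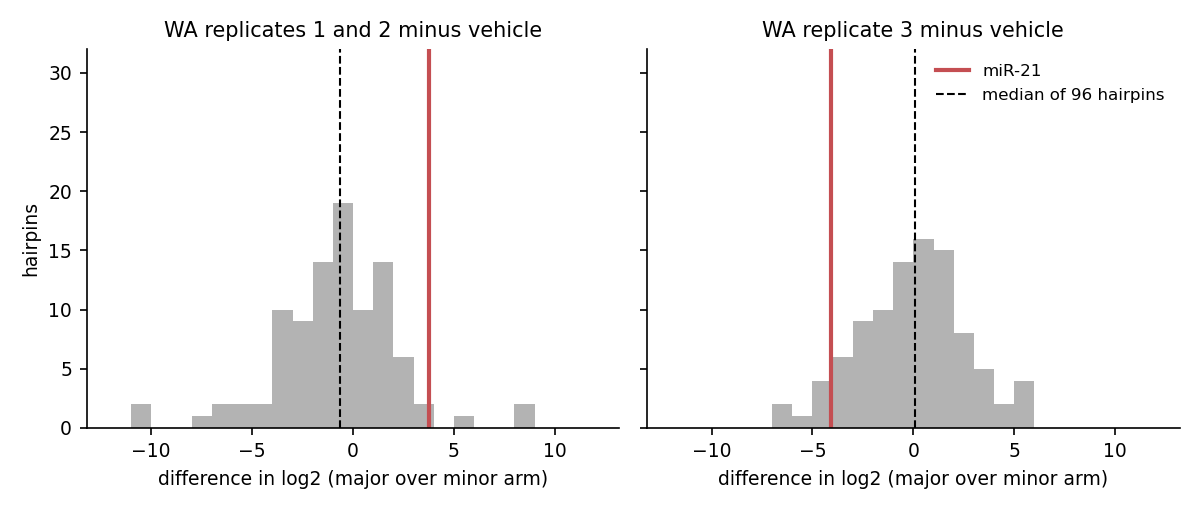
Number of hairpins (y axis) by the difference in log2 ratio of major to minor arm (x axis), for the mean of WA replicates 1 and 2 minus the vehicle mean (left) and for WA replicate 3 minus the vehicle mean (right). The red line marks miR-21, at 3.76 and at -4.09, and the dashed line the median of the 96 hairpins, at -0.62 and 0.08.

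The 5 hairpins with vehicle arm ratios nearest to that of miR-21 were miR-345, miR-224, miR-125a, miR-744 and miR-191. Of the 4 with a ratio in WA replicates 1 and 2, 0 had a higher mean there than in the vehicle group, with differences from -10.58 for miR-345 to -1.72 for miR-744 in the fit without WA replicate 3. miR-345 passed the limma test in it (adjusted p = 0.00178), and miR-125a, miR-744 and miR-191 did not. The 3p arm of miR-345 had 0, 0 and 2 reads in the vehicle libraries, and that of miR-191 had 0 in vehicle replicate 1. Those vehicle ratios are set largely by the added 1. As the 5 hairpins were chosen for vehicle ratios near the high one of miR-21, lower ratios in other libraries can come from the choice alone. Both arms of miR-224 were at 0 in WA replicates 1 and 2, so it has no ratio there and its change of -7.55 is not a measurement. The minor arms of these hairpins held few reads, from 0 to 239 per library, against 6 to 5678 for miR-21-3p.

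Other abundant miRNAs held more of WA replicate 3. In all, 10 miRNAs reached 5% of a library at least once, and the 9 besides miR-21-5p held between 23.9% and 35.4% of the reads in the other libraries and 55.1% in WA replicate 3. let-7a-5p, a tumour-suppressive member of the let-7 family, led that library at 14.0%, against 1.63% to 6.20% in the others. miR-221-3p, which represses the cell cycle inhibitor CDKN1B, followed at 10.1%, and miR-125b-5p at 8.73%. In the other 5 libraries miR-21-5p exceeded the next miRNA by 2.16 to 4.70 times. The second place was held by miR-221-3p in vehicle replicate 1, by miR-100-5p in vehicle replicates 2 and 3, and by let-7f-5p in WA replicates 1 and 2. With these 9 left out of the totals, the share of miR-21-5p differed by -6.16 percentage points between WA and vehicle (two-sided exact permutation p = 0.7), against -3.21 with them. It differed by 5.77 without WA replicate 3 (two-sided exact permutation p = 0.8).

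**Figure D5:**
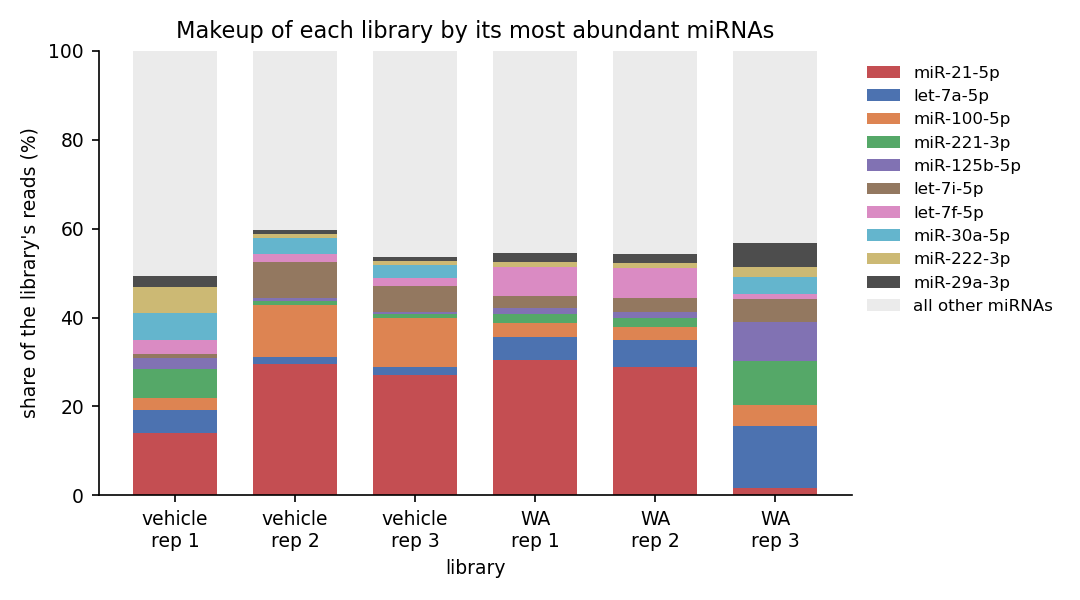
Makeup of each library, in percent of its reads (y axis), by the 10 miRNAs that reach 5% of a library at least once (colours) and all others (pale grey). miR-21-5p (lowest block) holds 14.0% to 30.5% in 5 libraries and 1.61% in WA replicate 3, where let-7a-5p, miR-221-3p and miR-125b-5p hold 14.0%, 10.1% and 8.73%.

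The miRNAs whose values followed each strand most closely differed between the strands. Over the 6 libraries, and among 326 other tested miRNAs, miR-24-2-5p had the highest Pearson correlation with miR-21-5p on log2(normalized value + 1), at 0.982. Its values were 19.0, 662 and 786 with vehicle, against 446, 518 and 0 with WA. miR-3613-5p (0.969), miR-151b (0.944), miR-9985 (0.944) and miR-378c (0.903) followed, and the first 3 of these were also listed at 0 in WA replicate 3. Without that library the correlations of the 5 ran from 0.546 to 0.966. miR-151b and miR-378c have close relatives in their families, so their counts may include or lack reads of those.

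miR-21-3p was most alike to miR-361-3p (0.986), miR-96-5p (0.982), miR-99b-5p (0.973), miR-126-5p (0.969) and miR-182-5p (0.967). miR-361-3p had values of 484, 1502 and 1005 with vehicle, against 81.2, 180 and 1582 with WA. The 6 libraries fell in the same order for miR-96-5p, at 97.5, 914 and 725 against 29.0, 51.8 and 1273. miR-96-5p and miR-182-5p are encoded in the same cluster. Without WA replicate 3 the 5 correlations were between 0.971 and 0.996. The correlation of the strands with each other was -0.24. These correlations have 6 points that share library depth and the same outlying library, and they describe likeness only.

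Of the 4 other hairpins within 1 Mb of MIR21, MIR454 and MIR301A had arms in the table. They lie 703393 and 690044 bases away on the opposite strand. None of their 4 arms passed the limma test, with log2 differences between -0.37 and 0.67 and adjusted p-values from 0.608 to 0.822, and 0 of 4 passed without WA replicate 3. In WA replicate 3, miR-454-3p was at 220 and miR-301a-5p at 51.8, within the range of the other libraries, miR-301a-3p was at 6.01, under its 10.7 to 48.2 elsewhere, and miR-454-5p was at 120.2, above its 19.7 to 52.2 elsewhere.

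Among 18 miRNAs described as oncogenic in breast cancer, 17 were in the table and 16 were tested. With all 6 libraries 1 passed as lower, miR-10b-5p, linked to invasion (limma adjusted p = 0.0276), beside 5.5% of all tested miRNAs. It had 12.2, 10.9 and 15.3 with vehicle and 0 in each WA library, so it met the filter through the vehicle group alone and had to come out lower. A count of 0 allows 17.4 in WA replicate 1, above these vehicle values, and 5.36 and 2.25 in WA replicates 2 and 3, below them. The other 15 did not pass, and the median log2 difference of the 16 was -0.69, against -0.91 for all tested miRNAs. These medians were -1.21 and -0.85 without WA replicate 3. Without WA replicate 3, 2 of the 16 passed as lower and 0 as higher, with miR-183-5p at -1.76 (limma adjusted p = 0.0199) beside miR-10b-5p, against 35.2% lower and 9.79% higher among all tested miRNAs. The filter favoured lower calls in both sets, as given above. The most abundant of them, miR-221-3p, had values of 62289, 13432 and 10869 with vehicle, against 19948, 19091 and 169488 with WA, highest in the library where miR-21-5p was lowest. miR-27a-3p had 3114, 21134 and 28678 with vehicle, against 21305, 23105 and 4932 with WA, low like miR-21-5p in vehicle replicate 1 and WA replicate 3. miR-155-5p had no test because it passed the filter in too few libraries, with at most 3.01 in vehicle replicates 1 to 3 and WA replicate 3 and 26488 and 24844 in WA replicates 1 and 2.

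Among 8 miRNAs known to be induced through STAT3, AP-1 or NF-kB, 7 were tested, and 0 passed the limma test with all 6 libraries, where 1 had an unadjusted p under 0.05, or without WA replicate 3. Among all tested miRNAs 26.3% had such an unadjusted p, and 45% passed without WA replicate 3. The untested member was miR-155-5p, given above. miR-146a-5p, a feedback inhibitor of NF-kB signalling, had 12584, 14221 and 7772 with vehicle, against 30029.7, 27574 and 36093 with WA, groups that did not overlap, as in 27.2% of all tested miRNAs. Its log2 difference was 1.48 (standard error 0.642, limma adjusted p = 0.198), and 1.37 without WA replicate 3 (limma adjusted p = 0.0829). miR-21-5p thus differed from miR-146a-5p in that its WA libraries did not lie on one side of the vehicle libraries.

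The libraries also differed in miRNAs typical of other cell types. miR-221-3p, miR-222-3p, miR-100-5p and miR-29a-3p, high in MDA-MB-231, together held 7.82% to 22.4% of every library. The miR-200 family, which marks epithelial cells and is low in this mesenchymal-like line, held 0.0140% to 0.189% of the vehicle libraries and 0.0739% of WA replicate 3, and its 4 listed members were at 0 in WA replicates 1 and 2. The summed value of 3 listed miRNAs of fibroblasts and smooth muscle was 16.3 to 58.3 in the vehicle libraries, 4464 and 5826 in WA replicates 1 and 2, mostly from miR-199a-3p, and 99.9 in WA replicate 3. Endothelial miR-126-3p was at 211 to 1753 in the vehicle libraries, at 58.0 and 17.9 in WA replicates 1 and 2 and at 5834 in WA replicate 3. miR-486-5p, from red cells and serum, was at 492 to 911 in the vehicle libraries, at 0 and 5.36 in WA replicates 1 and 2 and at 1223 in WA replicate 3, while the other 2 red cell miRNAs of the list, miR-451a and miR-144-3p, were not among the 413. Liver-specific miR-122-5p stayed between 0 and 14.3. None of the 4 blood cell and 2 muscle miRNAs was among the 413. As background, 166 of the 413 listed miRNAs were at 0 in WA replicate 1 and 146 in WA replicate 2. Without WA replicate 3 the groups of 69.1% of the 327 tested miRNAs did not overlap. The part of the cell type differences in the miR-21 results was not tested.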

How the data were processed

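The 6 small RNA libraries of MDA-MB-231 cells, 3 per group, were used. Before deposit, the authors trimmed reads (Trim Galore in the submitters' processing notes), mapped them to GRCh38.p10 with Bowtie, set other noncoding RNAs aside, identified known miRNAs and scaled libraries with DESeq2. What the authors deposited is a signal, the count of a miRNA over the library's size factor. Beside it stand the authors' own DESeq2 comparison columns (fold ratio, log2 value, p-value and adjusted p-value), which were not used. How reads shared by similar miRNAs were counted is not given in the sources used here. No per-sample column was left unused.

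Values were whole multiples of 1 step in 100% of cases (tolerance 0.001 of a step), but too few of them lie low enough to establish it, so read numbers assume that 1 step is 1 read and no count model was run. A count of 0 allows 3 reads, a normalized value of 0.857 in vehicle replicate 2 and 17.4 in WA replicate 1. limma 3.58.1 in R 4.3.3 was fitted to log2(normalized value + 1) for the 327 miRNAs with at least 10 in at least 3 libraries, with a variance trend, unpaired, two-sided, with Benjamini-Hochberg adjustment. Arm ratios were fitted likewise for 96 of 100 hairpins with both arms listed, where 1 arm passed this filter and the other reached 1 in at least 3 libraries, with the trend on the mean level of both arms. p-values measure the spread between these libraries. When a library was left out, the filter stayed that of all 6 libraries. Leaving out was first run with the filter re-applied to the remaining libraries, and the form reported here was taken after those values were seen. The fit was tested on simulated data. Chi-square tests of the library pairs within each group found none that agreed within sampling noise. WA replicates 1 and 2 came closest, at a chi-square of 13.4 per degree of freedom, against 330 to 3354 for the other pairs. This measure grows with the number of reads, and these were the shallowest libraries. Python 3.11.15, numpy 2.4.6, scipy 1.17.1 and pandas 2.3.3 were used.

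The miRNAs named besides the 2 strands were those with the miR-21-5p seed, within 1 Mb of MIR21 or at 5% or more of a library. Others were the 5 most correlated with each strand, the 5 hairpins nearest in vehicle arm ratio, and short lists of oncogenic, induced and cell type miRNAs. Hairpins passing on the arm ratio were given as counts. Those with an arm above 0 in each library but WA replicate 3 were also named, after their values were seen. The members and lists were chosen with earlier results of these data known. miR-27a-3p, miR-146a-5p, miR-155-5p and miR-183-5p were named from those lists after their values were seen. Targets, qRT-PCR and protein measurements were not analysed here.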

Additional observations from a re-analysis of the deposited data

How the results depend on the processing

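Under the 10 other scalings, filters, pseudocounts, thinning, trend and pairing settings, the log2 difference of miR-21-5p ran from -1.04 to -0.77 (limma adjusted p, from 0.553 to 0.740) and that of miR-21-3p from -2.41 to -1.91 (from 0.272 to 0.494). The arm ratio ran from 1.01 to 1.39 over its 6 settings (from 0.811 to 0.885). None of these settings changed a direction or a call of the 3. With each library left out in turn, miR-21-5p ran from -1.62 to 0.0928, miR-21-3p from -3.66 to -1.05, the arm ratio from -0.54 to 3.76, the share of miR-21-5p from -8.32 to 6.15 percentage points and that of miR-21-3p from -0.0772 to -0.0295. The signs turned without WA replicate 3 for miR-21-5p (0.0928) and its share (6.15), and without WA replicate 1 for the arm ratio (-0.54). Without WA replicate 3, miR-21-3p (-3.66) and the arm ratio (3.76) passed. The cause was not tested.

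limma called 18 miRNAs in the whole table, and 0 with upper-quartile scaling (79 at an unadjusted p under 0.05), 53 with no filter, 0 with a value of 10 in every library (29 unadjusted, fewer miRNAs tested), 7 with a pseudocount of 0.1 and 7 with a pseudocount of 10. Leaving out each library gave from 0 to 147, with 0 without vehicle replicate 2 or 3 or WA replicate 1 or 2, and 147 without WA replicate 3. For the arm ratios it was 0 of 96 (21 unadjusted), 1 after thinning, 5 with the replicate block and 0 to 16 with a library left out, the highest without WA replicate 3. Added after the values were seen, a count without the hairpins that had both arms at 0 in a library gave 9 of 79 without WA replicate 3, and the share of miR-21-5p with the other abundant miRNAs left out of the total turned to 5.77 points without it.

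Leaving out a library was first run with the filter re-applied over the remaining libraries, and the form above, which keeps the filter of all 6, was taken after its values were seen. The first form gave 0 to 130 called miRNAs (130 of 311 without WA replicate 3) and 0 to 15 called hairpins (15 of 94 without it). The forms differ without vehicle replicate 1, where the first called 0 miRNAs of 299 (69 at an unadjusted p under 0.05) and the reported one 21. The differences of miR-21-5p (0.0928), miR-21-3p (-3.66) and the arm ratio (3.76, and -0.54 without WA replicate 1) are the same in both, and without WA replicate 3 the adjusted p of miR-21-3p was 0.0372 and that of the arm ratio 0.0154, against 0.0344 and 0.0153.

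The replicate numbers are shared by the groups, but same-numbered libraries did not deviate together, with correlations of -0.07, 0.06 and -0.09, and 0 of 3 WA libraries correlated best with its own number. With the replicate block the adjusted p was 0.740 for miR-21-5p, 0.272 for miR-21-3p and 0.817 for the arm ratio. The planned edgeR and DESeq2 tests were not run, because too few values lie at 1 step to fix the reads. Depth limits miR-21-3p most in WA replicate 1, where it rests on 6 reads.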
